A study of Mus musculus with 2 samples.

Results

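The regions described here are the 1000 strongest distal DNase I hypersensitive peaks found in both libraries of mouse gastrocnemius muscle. DNase-seq marks open chromatin by sequencing the ends of fragments that DNase I cuts from nuclei. The tissue was gastrocnemius, a calf muscle rich in fast fibres, from male B6CASTF1/J mice aged 25 days, which are F1 hybrids of C57BL/6J and CAST/EiJ. There was 1 group of 2 libraries with no treatment or control, and whole muscle holds myofibre nuclei together with those of satellite, connective tissue, vessel, nerve and blood cells. The biosample descriptions number a different male for each library, but both carry 1 donor identifier, and sequencing instruments are named for replicate 1 only.

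A member is a replicate 1 peak that overlapped a replicate 2 peak by at least 1 bp and lay over 1 kb from every GENCODE M21 transcript start. Shared distal peaks were ranked by the mean of their 2 within-library percentiles of the authors' signal. The unit of that signal is not stated, and it is read here as a density of sequenced tags scaled to library depth. The first 1000 peaks were kept, so the members were selected on signal. Replicate 1 held 97499 peaks and replicate 2 held 61664. Both libraries shared 49760 of the replicate 1 peaks and 26234 of those were distal, so the members were 3.81% of the shared distal peaks and 25234 others remained. Every value of signal below is therefore a description, and no test was made on it. With 1 group of 2 libraries there was no comparison of conditions either, and shares are given with Wilson 95% intervals that cover counting error only. The ranking had no gap at its lower end. The last member, near Gcc1, had signals of 3.79 in replicate 1 and 3.14 in replicate 2 and a mean percentile of 88.61, and the first peak left out, near Nfic, had 4.84 and 2.79 and a mean percentile of 88.59.

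Distal hypersensitive sites include enhancers, where transcription factors open chromatin to raise the output of promoters at a distance, and insulators, where the zinc finger protein CTCF anchors chromatin loops. Within such a site, a bound protein can shield its own contact bases from DNase I and leave a footprint, a short dip in cutting. In muscle, the bHLH factors of the MyoD family and the MEF2 proteins are the best known activators of fibre genes.

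The following 9 windows, each 150 bases around a peak midpoint on the plus strand of GRCm38.p6 (mm10, RefSeq), show the kinds of sequence that recurred among the members. Capitals mark bases that lay in a deposited footprint in both libraries, and positions count from 1 at the left end. They are reference bases, so the CAST/EiJ allele of these hybrids may differ. A window in an intron of Mxi1, which encodes a MYC antagonist, is shown because its cAMP response element (CRE, TGACGTCA) at bases 75 to 82 and its GC box (GGGCGG) at 108 to 113 were both footprinted.
Mxi1 intron, rank 9, chr19:53314256-53314405: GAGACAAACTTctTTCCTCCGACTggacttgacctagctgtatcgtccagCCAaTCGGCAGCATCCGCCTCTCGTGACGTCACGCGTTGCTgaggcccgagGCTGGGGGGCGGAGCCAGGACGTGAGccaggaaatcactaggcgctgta
near Gnai2, rank 36, chr9:107612766-107612915: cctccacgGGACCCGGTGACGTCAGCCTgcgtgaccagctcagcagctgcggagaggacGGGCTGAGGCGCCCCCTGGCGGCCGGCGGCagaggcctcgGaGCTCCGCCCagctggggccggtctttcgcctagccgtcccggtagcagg
upstream of Foxk1, rank 20, chr5:142367366-142367515: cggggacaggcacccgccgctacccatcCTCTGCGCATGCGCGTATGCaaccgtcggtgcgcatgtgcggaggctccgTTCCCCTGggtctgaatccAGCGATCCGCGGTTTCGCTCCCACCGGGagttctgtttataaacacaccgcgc
upstream of Trpv4, rank 30, chr5:114667616-114667765: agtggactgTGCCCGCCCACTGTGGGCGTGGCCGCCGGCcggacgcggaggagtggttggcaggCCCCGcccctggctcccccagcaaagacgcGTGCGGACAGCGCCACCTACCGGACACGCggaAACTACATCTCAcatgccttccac
upstream of Chd2, rank 17, chr7:73618326-73618475: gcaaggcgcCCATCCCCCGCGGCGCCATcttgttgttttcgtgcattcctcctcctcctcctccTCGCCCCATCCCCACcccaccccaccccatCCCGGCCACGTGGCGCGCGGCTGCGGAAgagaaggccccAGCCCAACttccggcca
tRNA gene near Borcs6, rank 114, chr11:69063046-69063195: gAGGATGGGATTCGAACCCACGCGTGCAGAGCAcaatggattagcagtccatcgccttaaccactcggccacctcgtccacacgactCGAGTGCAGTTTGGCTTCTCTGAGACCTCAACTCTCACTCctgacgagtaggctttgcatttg
Per1 intron, rank 12, chr11:69097046-69097195: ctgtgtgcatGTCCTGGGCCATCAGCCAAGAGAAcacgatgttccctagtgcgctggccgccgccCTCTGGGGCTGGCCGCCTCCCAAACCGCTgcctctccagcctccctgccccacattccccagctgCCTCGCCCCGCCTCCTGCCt
Nr1d1 intron, rank 14, chr11:98773906-98774055: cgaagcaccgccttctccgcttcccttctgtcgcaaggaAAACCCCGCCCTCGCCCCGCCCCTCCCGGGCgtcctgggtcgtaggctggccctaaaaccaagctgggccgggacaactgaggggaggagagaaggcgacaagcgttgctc
repeated sequence upstream of Igf2bp3, rank 3, chr6:49236446-49236595: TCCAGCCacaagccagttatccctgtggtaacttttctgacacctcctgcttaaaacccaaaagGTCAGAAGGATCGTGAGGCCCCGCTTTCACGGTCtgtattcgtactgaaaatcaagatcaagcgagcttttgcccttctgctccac
The window near Gnai2 holds a CRE at bases 17 to 24 and a CTCF match at 70 to 81, each within a run of capitals. The Foxk1 window has an NRF1 match at 32 to 43, the Trpv4 window a CTCF match at 106 to 117, and the Chd2 window a CACGTG E-box at 101 to 106, all footprinted in both libraries. In the tRNA window the footprint covers the B box, an internal promoter element read by TFIIIC, at 9 to 17. The last window is the strongest member outside an annotated exon and is a sequence that recurs in the genome. Motif matches here and below are letters found in a window on either strand, not shown binding sites.

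The 8 highest-ranked members stood apart in replicate 1, with signals of 17.1 or more where no other member passed 15.7, and 5 of them were repeated sequence. The first, chr9:123461901-123462100 in a UTR exon of Lars2 (mitochondrial leucyl-tRNA synthetase), had a signal of 34.6 in replicate 1 and 57.1 in replicate 2. The second, chr15:99735661-99735920 in a UTR exon of Cers5 (a ceramide synthase), had 31.01 and 40.1. The third, the Igf2bp3 window printed above, had 23.5 and 41.2. Their levels lay far above the median member, which had 4.45 in replicate 1 and 4.47 in replicate 2. The next were chr13:112578161-112578320 in an intron of Il31ra with 20.2 and 45.7, chr3:5860361-5860530 between genes with 22.99 and 36.4, and chr9:3002041-3002220 in coding exon sequence of Gm10722 with 17.1 and 50.4. The seventh, chrX:143482981-143483140, lay 35.5 kb upstream of Pak3 with 23.6 and 23.1, and the eighth, chr13:58177621-58177820 in a UTR exon of Ubqln1 (a ubiquitin-binding shuttle protein), had 17.2 and 16.9. Ranks 9 and 10 were the Mxi1 window, with 12.8 and 13.2, and chr14:65343681-65344020, 14.5 kb upstream of Zfp395, with 13.9 and 11.0. Ranks 1 and 3 to 6 had most of their 31-base words at another place in the assembly, from 61.7% at Lars2 to 100% at the chromosome 3 peak and at Gm10722, whose words occurred a median of 8 and 44 times. The other top 10 members had no exact 31-base word elsewhere in the nuclear assembly, except the Pak3 peak, at 30.8%. Near copies and mitochondrial matches did not enter this share. How the authors placed tags that match several copies is not given in the sources used here, so the signal of repeated members may belong to any copy.

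**Figure D1:**
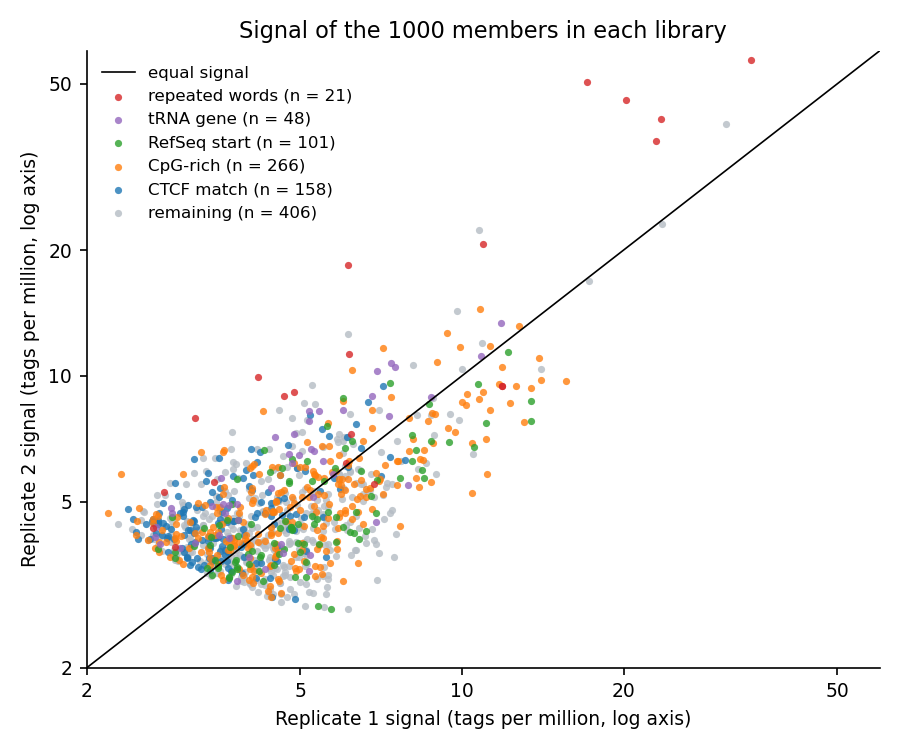
Signal of each of the 1000 members in replicate 1 (x) and replicate 2 (y), coloured by sequence class, with the line of equal signal. Both are log axes of signal, which is read as scaled tag density. The 5 repeated members among the 8 strongest lie at 17.1 to 34.6 in replicate 1 and 36.4 to 57.1 in replicate 2, above the line, while the quartiles of all members are 3.56 and 5.64 in replicate 1 and 3.85 and 5.67 in replicate 2.

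To describe what the members share beyond signal, each was put in the first class it met of 6, chosen after values were seen. The classes were repeated words (at least 50% of its 31-base words found elsewhere), a RefSeq tRNA gene within 200 bp, a RefSeq start within 1 kb, a CpG-rich window (GC of at least 55% and a CpG ratio of observed to expected of at least 0.6), a CTCF match, and the remainder. CpG-rich sequence was the largest named class. It took 266 members, 26.6% (24.0 to 29.4), against 5.53% (5.26 to 5.82) of the other shared distal peaks. RefSeq starts that GENCODE M21 does not list took 101 members, 10.1% (8.38 to 12.1), against 5.40% (5.13 to 5.68). Genes for tRNA, which the start rule did not use because the GENCODE M21 files hold no nuclear tRNA genes, took 48 members, 4.8% (3.64 to 6.31), against 0.380% (0.312 to 0.464). The classes were chosen after values were seen, and some members are neighbours or related copies. Whether intervals lie apart or overlap is therefore not a test. CTCF matches outside the classes above took 158 members, 15.8% (13.7 to 18.2), against 11.7% (11.3 to 12.1). Repeated words took 21 members, 2.1% (1.38 to 3.19), against 1.37% (1.23 to 1.52), where the intervals overlapped. The remainder was 406 members, 40.6% (37.6 to 43.7), against 75.6% (75.1 to 76.1). Counted without the order of classes, 36.0% (33.1 to 39.0) of members and 6.84% (6.54 to 7.16) of the others were CpG-rich, and mean GC of the window was 61.1% and 55.04%.

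**Figure D2:**
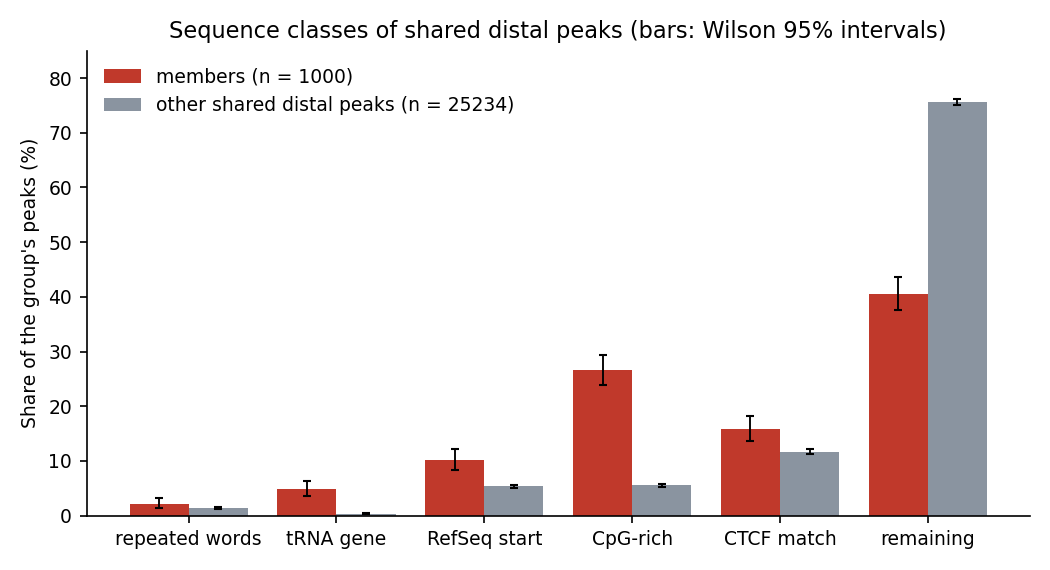
Share of peaks in each of 6 sequence classes (y, %) for the 1000 members (left bar) and the 25234 other shared distal peaks (right bar), with Wilson 95% intervals. CpG-rich windows hold 26.6% of members and 5.53% of the others, and tRNA genes 4.8% and 0.380%.

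The log2 ratio of replicate 1 over replicate 2 signal had a median of -0.05 over the members, with quartiles of -0.39 and 0.27, and a median of 0.00 over the other shared distal peaks, with quartiles of -0.37 and 0.38. Relative to the median over all shared distal peaks, 4 members were above by over 2-fold, beside 3.24% of all shared distal peaks, and 12 were below by over 2-fold, beside 2.57%. The rule asked for high signal in both libraries, which bears on all these values, and nothing is read from them. By class the ratio is given for members only, as description, with 1 library on each side. Repeated members had a median of -0.81, with 18 of 21 below the overall median and 5 of the 12 members that were below by over 2-fold. The tRNA gene members had a median of -0.36, with 38 of 48 below, and the CTCF members -0.27, with 127 of 158 below. Members at RefSeq starts had a median of 0.16, with 34 of 101 below, and CpG-rich members 0.02, with 129 of 266 below. Animal and sequencing cannot be told apart here, and their part in these ratios was not tested.

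By position, the members had a shorter median distance to a start than the other shared distal peaks, and a smaller share of them was intronic. The median distance from the midpoint to the nearest start was 6.31 kb for members and 10.8 kb for the others, and 23% (20.5 to 25.7) of members and 13.6% (13.2 to 14.0) of the others lay within 2.5 kb. Introns held 33.6% (30.7 to 36.6) of members and 45.6% (45.0 to 46.3) of the others. Sequence between genes held 54.8% (51.7 to 57.9) of members and 44.8% (44.2 to 45.4) of the others, and exons 11.6% (9.76 to 13.7) and 9.59% (9.23 to 9.96). Of the 116 exonic members, 57 overlapped coding sequence, 31 a UTR with no coding sequence, and 28 exons with neither. Members lay upstream of the nearest start in 48.3% (45.2 to 51.4) of cases and the others in 46.4% (45.7 to 47.0). Chromosome 11 carried 125 members, 12.5%, against 7.86% of the others, and 18 of those 125 were at tRNA genes.

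Along the chromosomes, 198 members lay within 10 kb of another. They formed 91 chains of 2 or more and 15 of 3 or more. The longest chain held 4 members over 13.4 kb at Nr1d1 and Msl1 on chromosome 11. Of the members, 80 lay within 500 bp of another and 29 shared their replicate 2 peak with another, so the 1000 members matched 985 replicate 2 peaks and are not all separate sites. Beyond position, 36 members shared a 31-base word with a member elsewhere, 16 of them at tRNA genes, so these are related copies and not separate observations.

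Every member overlapped a footprint in replicate 1, and all but 1 did in replicate 2. The exception was the second-ranked peak, in Cers5, with 1 footprint in replicate 1 and 0 in replicate 2. Members held 4.29 footprints per peak in the first library and 4.01 in the second (mean of 4.15 ± 0.197, SD over 2 libraries), against 2.63 and 1.93 (2.28 ± 0.499) for the other shared distal peaks. At least 3 footprints in each library were found in 794 members, while 7 had no base footprinted in both. Footprints covered 34.7% of member bases in replicate 1 and 32.4% in replicate 2, against 15.4% and 10.8% of the others. Of the member bases footprinted in either library, 61.3% were footprinted in both, against 32.1% for the others. Footprints in members were also wider, with a median of 15 bp in replicate 1 and 13 bp in replicate 2, against 10 and 9 bp, and 37.5% and 35.6% of them spanned 20 bp or more, against 18.8% and 16.1%. A footprint can be called only where tags are dense, and signal, read as tag density, chose the members, so these values are a description. The share was lower at each step down the ranking in both libraries, and ranks 1001 to 2000 had 28.7% and 26.1% of their bases footprinted. The central 150 bp of the members was 38.6% footprinted in replicate 1, 36.5% in replicate 2 and 30.3% in both, the level against which footprints at motifs are read below.

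**Figure D3:**
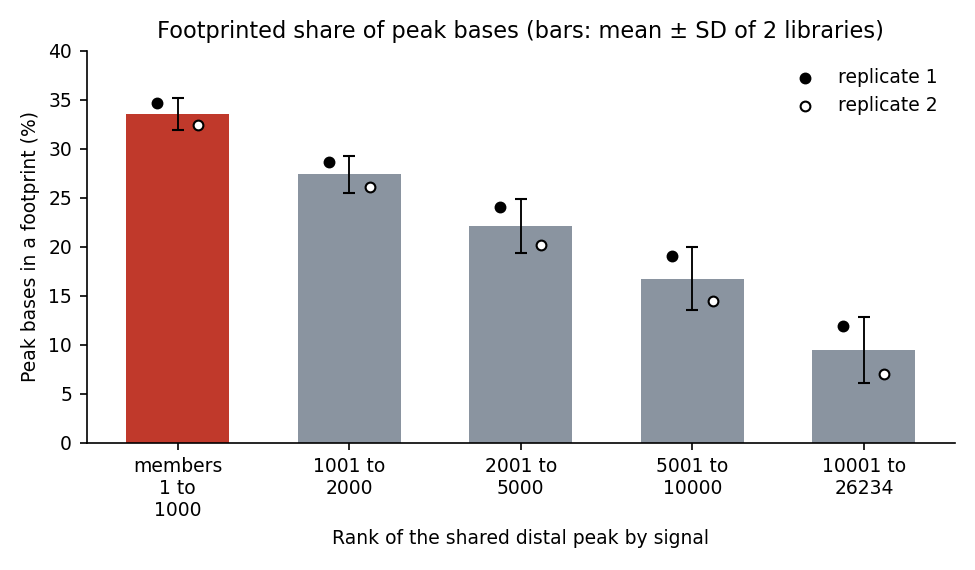
Share of peak bases in a footprint (y, %) by rank of the shared distal peak (x), as mean ± SD of 2 libraries with each library as a point. Members are at 34.7% and 32.4% and ranks 10001 and below at 11.9% and 7.07%, with replicate 1 higher throughout.

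Among 30 motifs searched, those with the highest ratio of members to other shared distal peaks were mostly elements found near starts. The GC box GGGCGG, bound by SP and KLF factors, was in 30.3% (27.5 to 33.2) of members, against 9.55% (9.19 to 9.92) of the others, and 45.8% of shared peaks within 1 kb of a start held it. NRF1, a regulator of nuclear genes for mitochondrial and housekeeping proteins, matched in 11 members (1.1%), against 0.119% of the others and 1.48% near starts. The CRE TGACGTCA, bound by CREB and ATF proteins, was in 19 members (1.9%), against 0.365% and 1.92% near starts. The tRNA B box GTTCGANNC was in 16 members (1.6%), against 0.345%, and CCGGAAG, an ETS factor element, in 42 (4.2%), against 1.60% and 8.33% near starts. These 5 had the highest ratios of member share to other share, from 9.25 for NRF1 to 2.62 for ETS.

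MEF2 elements matched in 0 members, against 135 of the others (0.535%), and TCAAGGTCA, the element of oestrogen-related receptors, in 0 members against 51 (0.202%). A count of 0 allows a share of up to 0.3% when 3 counts are taken as the floor, and up to 0.383% by the Wilson interval. The difference for the receptor element was therefore not detectable with 1000 members, and that for MEF2 is read with base composition below. GATA elements (AGATAA) were in 12 members (1.2%), against 3.42% of the others, the third lowest ratio. CAGCTG, the E-box preferred by MyoD family factors, was in 16.2% (14.0 to 18.6) of members and 21.8% (21.3 to 22.3) of the others. TTGGCA, a single arm of the NFI site, was in 10.0% (8.29 to 12.02) of members and 16.0% (15.6 to 16.5) of the others, and the nuclear receptor element AGGTCA in 6.1% (4.78 to 7.76) and 10.8% (10.4 to 11.2).

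**Figure D4:**
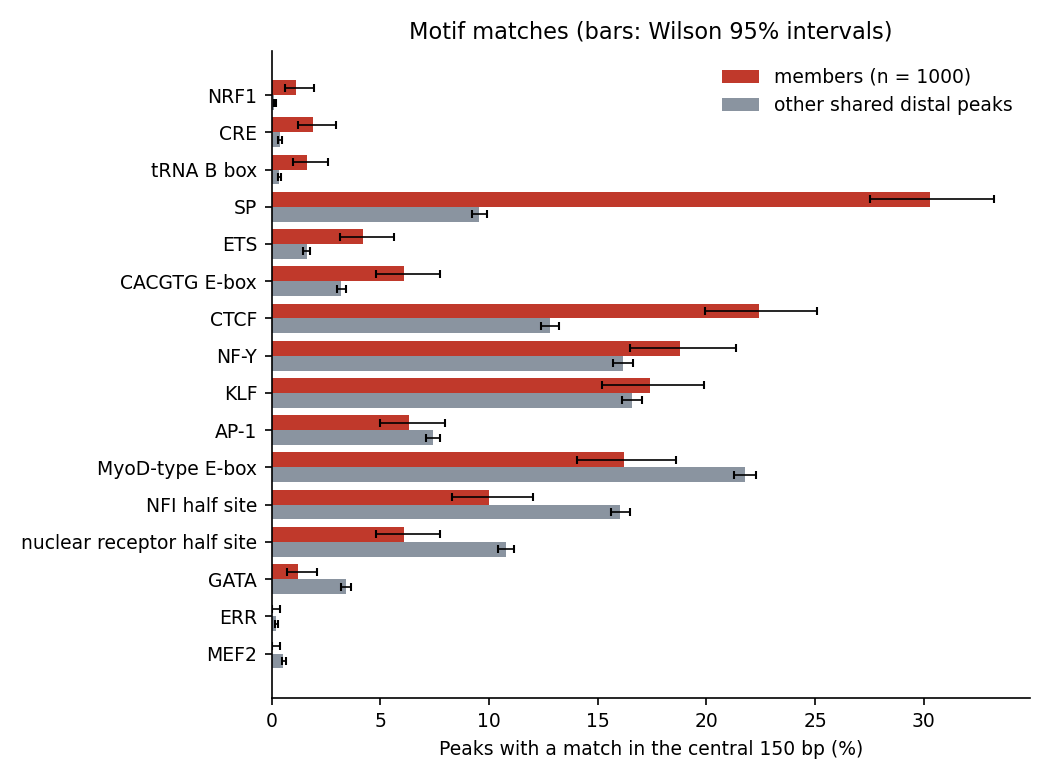
Share of peaks with a match in the central 150 bp (x, %) for 16 of the 30 motifs, members above and other shared distal peaks below, with Wilson 95% intervals. The GC box (SP) is in 30.3% of members and 9.55% of the others, and the MyoD-type E-box in 16.2% and 21.8%.

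The shares were also taken within levels of base composition, since GC differed between the groups. In windows with GC of at least 65%, which 285 members and 1273 others had, the GC box was in 61.4% of members and 44.5% of the others, and from 55 to 65% GC in 21.5% and 12.01%. CAGCTG stayed lower in members at each level, with 10.3% and 18.4% under 55% GC, 17.4% and 25.9% from 55 to 65%, and 18.2% and 22.2% from 65%. The CTCF motif went the other way at each level, with 24.6% and 15.6%, then 26.2% and 10.2%, then 14.0% and 6.28%. TTGGCA was lower in members under 55% GC, with 10.8% and 17.1%, and from 55 to 65%, with 11.5% and 15.9%, but not from 65%, with 6.67% and 6.28%. MEF2 elements were in 0 members at each level, and in 0.704%, 0.381% and 0.0786% of the others from the lowest level to the highest. Among the others, MEF2 was thus rarest in the GC-rich windows that were more frequent among members. No intervals were computed within a level. No count for like composition was computed over all members together, so a difference at like composition was not tested.

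Footprints lay on nearly every CTCF match. Its motif was in 22.4% (19.9 to 25.1) of members, against 12.8% (12.4 to 13.2) of the others and 3.72% of shared peaks near starts. The share did not climb to the top of the ranking, since ranks 1001 to 2000 held it in 27.3% (24.6 to 30.1). Of 231 matches in members, 97.4% had their centre in a footprint in replicate 1, 96.1% in replicate 2 and 96.1% (92.8 to 97.9) in both, against 80.7% (79.3 to 82.1) in both for 3265 matches in the others. Over all window bases the level in both was 30.3% in members and 8.75% in the others. The 2 CTCF shares thus stand on unlike levels and do not show better footprinted CTCF matches in members. The palindromic NFI site was footprinted in both libraries at 14 of 14 matches (78.5 to 100%), NRF1 at 9 of 11 (52.3 to 94.9%), CRE at 13 of 19 (46.0 to 84.6%) and the tRNA B box at 12 of 16 (50.5 to 89.8%). CAGGTG, an E-box of bHLH and zinc finger factors, was footprinted at 62.9% (54.4 to 70.6) of 132 matches. The CTCF pattern can itself hold CAGGTG, and overlapping matches of the 2 motifs were not set apart. How many of these footprints lay on CTCF matches was not counted. CAGCTG was footprinted at 30.98% (24.7 to 38.0) of 184 matches, an interval that holds the 30.3% of all window bases. In the other shared distal peaks it was footprinted at 11.1% (10.4 to 11.9) of 6324 matches, above their 8.75%. In members TGANTCA, the AP-1 element, stood below the 30.3% level at 10.1% (5.00 to 19.5) of 69 matches, and CCGGAAG at 13.6% (6.40 to 26.7) of 44. That level averages all window positions. Member matches lay a median of 12 bp from the midpoint for CTCF, 37.5 bp for CAGCTG and 40 bp for TGANTCA. Position in the window was not taken into account, so its part in these shares was not tested.

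**Figure D5:**
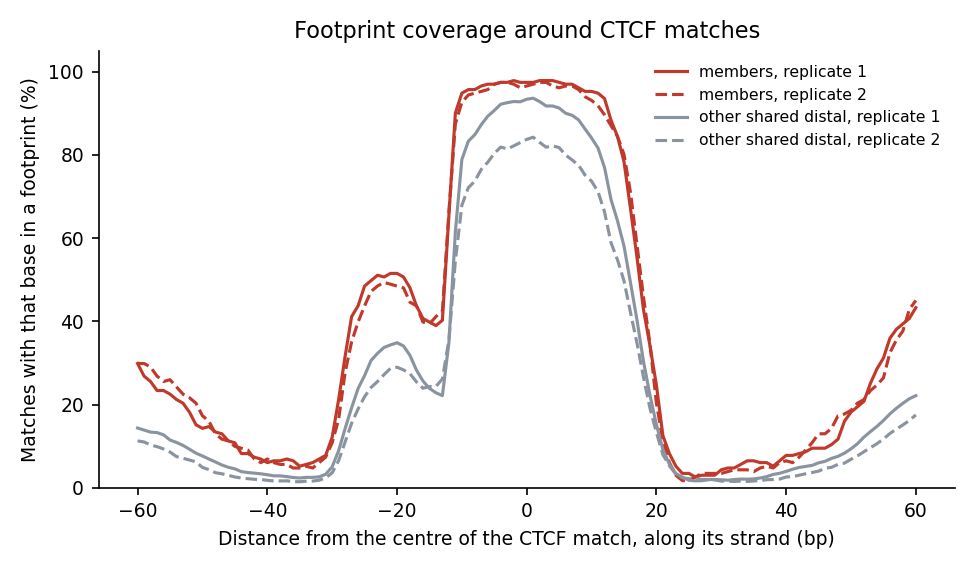
Share of CTCF matches whose base at each distance (x, bp from the match centre along its strand) lay in a footprint (y, %), for 231 matches in members and 3265 in other shared distal peaks, by library; the centre is the one of the 2 middle bases set by the strand, where the text takes the plus-strand one. Members reach 97.4% and 96.5% there, and a second, lower rise at -20 bp stands at 51.5% and 48.5% in members and 34.9% and 28.97% in the others.

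The nearest protein-coding gene was taken by start position, which does not show that a peak acts on that gene. Members were nearest to 819 genes, 3.73% of all 21938 protein-coding genes and 8.88% of the genes nearest to any shared distal peak. Of the 819, 137 were nearest to at least 2 members and 32 to at least 3. Ptma, which encodes prothymosin alpha, an acidic nuclear protein, had the most with 6, and their signals ran from 4.06 to 11.9 in replicate 1 and from 3.56 to 10.5 in replicate 2. They lay from 39.1 kb upstream to 5.74 kb downstream of its start, and 4 of the 6 held a CTCF match. Rps6ka1, a growth factor-responsive kinase, had 5 in 2 places, 3 about 47 kb downstream and 2 about 23 kb upstream, and all held a GC box. Klrb1c, a receptor of natural killer cells, had 5 members spread from 14.0 kb upstream to 28.3 kb downstream, and 2 of them carried a CRE. At Atoh8, a bHLH transcription factor gene, the strongest of 4 members lay in its intron, 17.7 kb downstream of the start, with 10.9 in replicate 1 and 11.95 in replicate 2. At Socs3, an inhibitor of cytokine signalling, the strongest of 4 lay 5.61 kb downstream with 10.2 and 9.06. All 4 members at Trim7 and 2 of 4 at Shf were at tRNA genes, and the 3 at Gm21887 on the X chromosome were repeated sequence, and are counted here by position only. The remaining names among the 10 genes with the most members were 1700001O22Rik, with 4, and Chd2, a chromatin remodeller, with 3 that lay 53.5 to 76.6 kb upstream. Many genes tied at 3, and Chd2 and Gm21887 were taken from them for their best-ranked member.

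Of 25 gene lists, those of immediate early and circadian clock genes had the largest shares of genes nearest to a member. By the share of a list's shared distal peaks that were members, which is 3.81% over all shared distal peaks, the order differed, with erythroid genes at 25% (1 member and 3 others), slow fibre genes at 21.1% (4 and 15), clock genes at 17.6% (6 and 28), keratinocyte genes at 14.3% (1 and 6) and immediate early genes at 13.6% (12 and 76). Of 14 immediate early genes, which respond to stimuli within minutes, 8 were nearest to a member (Egr1, Fos, Fosb, Ier2, Jun, Junb, Klf4 and Nr4a1), 57.1% (32.6 to 78.6) beside the 3.73% of all protein-coding genes. All 14 were also nearest to an other shared distal peak, and the share over genes nearest to any shared distal peak was 8.88%. Both levels apply to the lists below. Fosb had 3 members and Fos and Jun 2 each. The higher-ranked of the Fos members, 11.3 kb downstream of the start, had 7.60 in replicate 1 and 6.24 in replicate 2, and it held a match to the SRF element, a known regulator of Fos, though that element was footprinted in both libraries at 1 of 7 matches over all members.

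Of 12 circadian clock genes, 5 were nearest to a member (Cry2, Hlf, Nr1d1, Per1 and Tef), 41.7% (19.3 to 68.0). The Nr1d1 intron member, whose gene encodes the repressor REV-ERB alpha, had 15.7 in replicate 1 and 9.70 in replicate 2, a log2 ratio of 0.69. A second Nr1d1 member, 8.18 kb upstream, had 8.96 and 5.84 and held a CACGTG E-box, the element of CLOCK and BMAL1. The Per1 member, 1.83 kb upstream of the nearest start within a longer transcript, had 14.0 and 10.4, a log2 ratio of 0.44. These 3 and the Hlf member described next were higher in replicate 1, none of them by over 2-fold. The median log2 ratio over all members was -0.05, and with 1 library on each side nothing is read from this. The Hlf member, 27.2 kb upstream of that PAR bZIP factor gene, had 8.65 and 7.80 and also held CACGTG.

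Lists of muscle structure and fuel genes differed among themselves. Of 30 genes of the sarcomere and triad common to all fibres, 26 were nearest to an other shared distal peak and 1, Xirp1, a cytoskeletal adaptor gene, was nearest to a member, with 8.78 in replicate 1 and 8.17 in replicate 2. That gene is 3.33% (0.591 to 16.7) of the list, beside 3.73% of all protein-coding genes, and its 1 member stood beside 91 others, 1.09% of the list's peaks. None of 15 genes of glycolysis and glycogen, 12 of the neuromuscular junction or 8 of the developmental sarcomere had a member. Of them, 9, 9 and 5 were nearest to an other shared distal peak. The upper limits were 20.4%, 24.2% and 32.4%, above the 3.73% of all protein-coding genes. Lists this small cannot show whether members were short there. Fast fibre genes had 2 of 15 (13.3%, 3.74 to 37.9), whose members were 11.8% of the list's peaks. They were Casq1, a calcium store of the sarcoplasmic reticulum, with 7.25 and 5.54, and Mylk2, skeletal myosin light chain kinase, with 3.78 and 3.59. Slow fibre genes had 2 of 12 (16.7%, 4.70 to 44.8), Myl3 with 3 members and Myl2 with 1. The strongest Myl3 member, 13.1 kb from its start, had 6.80 and 8.31 and held a CTCF match and a GC box.

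Among 20 myogenic transcription factor genes, 19 were nearest to an other shared distal peak and 3 to a member, and members were 3.08% of the list's peaks, near the 3.81% overall. Nfix had 2 members, the stronger with 4.59 in replicate 1 and 5.78 in replicate 2, and Mef2d had 1, with 4.98 and 3.45 and a CRE. Of 20 genes of insulin signalling, growth and atrophy, 6 had a member (Foxo1, Foxo3, Igf1r, Irs1, Irs2 and Tsc22d3), 30% (14.5 to 51.9), with members 6.73% of the list's peaks, and the stronger of 2 in Igf1r had 8.29 and 5.98. Oxidative metabolism had 2 of 18, Ppara and Ppard, and members were 4.35% of its peaks.

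Lists of other cell types had few members each, and their counts are read against the 3.73% of all genes and the 3.81% of peaks. As a share of the list's peaks, members were 5.45% for satellite cell, 4.82% for fibro-adipogenic and 2.27% for endothelial genes, and 7.14% for neuron genes, a cell type whose nuclei are not in the muscle, so nothing particular to any of these lists is read. Fibro-adipogenic genes had 4 of 14 (Cd34, Col1a1, Dcn and Gsn), and the Cd34 member, 59.1 kb upstream, had 7.36 in replicate 1 and 8.92 in replicate 2. Satellite cell genes had 3 of 14 (Cdh15, Hey1 and Notch3), tendon genes 2 of 9 (Scx and Thbs4), and smooth muscle genes 1 of 12 (Notch3, which is in both lists). Endothelium had 1 of 15 (Pecam1, with 3.97 and 3.58), Schwann cells 1 of 10 (Pmp22), leukocytes 1 of 14 (Spi1), erythroid cells 1 of 10 (Klf1), and hindlimb and Hox genes 1 of 13 (Hoxc8). Adipocyte genes had 0 of 10. Lists of cells from elsewhere had 2 of 12 for neurons (Dlg4 and Slc17a7), 1 of 10 for keratinocytes (Sfn) and 0 of 11 for hepatocytes, and housekeeping genes had 2 of 16, Eef2 among them. Of 22 cell type marker genes, Col1a1, Pecam1 and Spi1 had a member, and the fibre markers Ckm, Acta1, Mylpf, Tnnt3 and Myh4 had none. Acta1 had 5 shared distal peaks, the highest at rank 4261 with 1.80 and 1.81, Tnnt3 had 1, and Ckm, Mylpf and Myh4 had 0. Distal peaks by this rule leave out promoters, so a gene with no member may still have an open start. In bulk tissue, how many cells have a site open and how open it is in each cannot be told apart.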

How the data were processed

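DNase-seq of gastrocnemius from 2 libraries was used, and per the deposited README notes each library's lists come from its own alignments, so replicates were not pooled. Peak signal was used as deposited. In each library its values are whole multiples (within 0.00846) of 1 step, which reads as tag density scaled to depth and gives 169 M and 117 M tags; no source states this. A member had a median of 752 and 523.5 tags. The positions in the deposited footprint lists were used, whose other value is the constant 0.01. Which aligner and callers the authors ran is not given in the sources used here. Of 2 peak lists per library the longer was used, over chromosomes 1 to 19, X and Y of mm10 per the labels.

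Starts and exons came from GENCODE M21, tRNA genes, further starts and sequence from RefSeq GRCm38.p6. The lists and motifs, and the members, were chosen with earlier results of these data known. Named are the 10 highest-ranked members, the 10 genes nearest to the most members (ties by best rank), up to 3 genes of each list, and the 5 motifs with the highest and 3 with the lowest ratio. CTCF and other motifs, and the 6 classes, were added after values were seen. Motifs were sought on both strands of the central 150 bp. All 60 motif copies planted in simulated sequence were found. Of 345 list genes, 342 matched a symbol. No test of significance was made: with 2 libraries an exact sign-flip test cannot go below p = 0.5. Tools were Python 3.11.15, pandas 2.3.3, SciPy 1.17.1 and pysam 0.24.0. The other deposited list, of per-position false discovery rates, was not used.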

Additional observations from a re-analysis of the deposited data

How the results depend on the processing

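The member list was recomputed under 13 alternatives, 2 of them (dropping repeated words and tRNA genes, and asking for 1 kb from RefSeq starts as well) chosen after seeing the data. When the 5′ end of each gene replaced every transcript start, 553 of the 1000 regions were main members, 26.8% were intronic and the median distance was 7.11 kb, since peaks at alternative starts then count as distal. Asking for over 2.5 kb gave 8.91 kb by construction, and taking 2000 regions gave 6.84 kb and 1524 nearest genes. The top 500 held 500 members by construction and 434 genes. Ranking by 1 library alone (without replicate 1 or without replicate 2) kept 778 to 873 members, with 32.6 to 35.9% intronic, distances of 6.44 to 6.59 kb, footprints in 99.8 to 100% of members in replicate 1 and 99.8% in replicate 2, and 814 to 837 nearest genes. The other alternatives kept 763 to 996 members, and without repeated words and tRNA genes 931. Of 135 motif values, 22 moved beyond the main interval. The GC box ranged from 24.05 to 48.4%, CTCF from 13.2 to 25.9% and MEF2 from 0 to 0.2%. The CTCF share depended on which library ranked the peaks. It was 25.9% without replicate 1 and 16.6% without replicate 2, beside 22.4% in the main list. The GC box was in 27.3% and 30.9%, beside 30.3%. The 4.8% of members at tRNA genes and the 10.1% at RefSeq starts depend on the annotation that defines a start. No paired analysis was possible because there is 1 group of 2 libraries. Replicate 2 had fewer footprints and, by the inferred tag totals, less depth, whose part in this was not tested.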
